A study of Mus musculus with 22 samples.

Results

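The oligodendrocyte lineage and myelin transcripts described here are 30 genes, chosen by name from the 24537 genes of a table of ribosome-bound and whole-tissue RNA from mouse visual cortex. All 30 were found in the table. They divide into 23 myelin members, which encode proteins and enzymes of the myelin sheath and of mature oligodendrocytes, and 7 lineage and precursor members (Olig1, Olig2, Sox10, Pdgfra, Cspg4, Lhfpl3 and Enpp6), which mark the lineage as a whole, its dividing precursors or newly formed oligodendrocytes.

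Oligodendrocytes wrap axons with myelin, a compacted membrane that speeds conduction. They arise from precursor cells that carry the growth factor receptor Pdgfra and the proteoglycan Cspg4, under the transcription factors Olig1, Olig2 and Sox10, and turn on Myrf as they mature. In mouse cortex myelin is laid down after birth and goes on being added in adult life.

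All mice were C57BL/6J and carried 73.12 GFAP-cre and RPL22-HA, also the controls. RPL22-HA is a ribosomal protein that gains an HA tag wherever Cre has acted, so anti-HA pulldown collects RNA on the ribosomes of cells with a history of GFAP-cre activity. The tagged cells are defined by that promoter, and no group without Cre or without the tag was analysed here. Normally reared mice had a 12 h light cycle and were sampled at postnatal day 45 (3 pulldown libraries). Dark-reared mice were kept in 24 h darkness and sampled at day 45 (4 libraries). Mice given 10 days of darkness were sampled at day 120 (3 libraries). Mice with 2 days of monocular deprivation were sampled at day 28, separately for the hemisphere contralateral (3 libraries) and ipsilateral (3 libraries) to the deprived eye. Each of the 5 groups also had 1 input library, made from the homogenate of the whole dissected region. The labels do not say how many mice went into a library, so p-values measure the spread between libraries. Dark and normal rearing share an age, as do the contralateral and ipsilateral groups, while the day 120 and day 28 groups differ from normal rearing in age and treatment together.

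Values are FPKM, reads scaled to transcript length and library size, rounded to 0.1. In genes under 130 bases the spacing of values gave an estimated depth of 21200000 to 51400000 reads for 20 of 21 libraries, but none for contralateral replicate 2. At that depth the lowest value of Hapln2, the scarcest member, stood for about 20.6 reads and the lowest value of Mbp for about 25464 reads. The 15 astrocyte markers summed to 12994 to 19378 FPKM in the pulldowns and 1689 to 2398 in the inputs. The 15 neuron markers summed to 312 to 1396 and 4050 to 4561 FPKM, and the 12 microglia markers to 23.0 to 156 and 294.8 to 601 FPKM. Microglia markers were highest in the 3 day 120 pulldowns (90.4 to 156 FPKM, against 23.0 to 38.0 in the other 13 libraries). Libraries also differed in how their deviations followed transcript length: over 11340 genes, rank correlations ran from -0.50 to 0.59 in the pulldowns and from -0.525 to 0.678 in the inputs. Among the pulldowns they were negative in both libraries of monocular pairs 1 and 2 and positive in both of pair 3. The part of any of these in the values below was not tested. In bulk RNA, fewer cells of a type and less RNA per cell cannot be told apart.

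Most of the 30 oligodendrocyte transcripts were higher in the HA pulldown than in the tissue it came from. The 23 myelin members summed to 2014 to 4177 FPKM in the pulldowns and 1092 to 1839 in the inputs. Of the 23 myelin members, 14 were higher in the pulldown, none was lower and 9 did not pass the test. Of the 7 lineage and precursor members, 5 were higher, Lhfpl3 was lower and Enpp6 did not pass. Over all 12070 genes tested, 77.1% passed, 26.4% higher and 50.7% lower (limma, Benjamini-Hochberg adjusted p under 0.05). The median log2 fold change was 0.49 for the myelin members and 0.66 for the lineage members, against -0.31 for all tested genes. Fold changes are on the log2(FPKM + 1) scale, which understates those of genes near 1 FPKM, and the test set 16 pulldown libraries against 5 inputs while allowing each group its own level. Scaling moved the balance of calls: 3185 genes were higher and 6115 lower as deposited, 4719 and 4598 after quantile normalization, and 4544 and 4624 after median-ratio scaling. Members called higher and lower numbered 19 and 1, 22 and 1, and 23 and 1 in the same order, and the median of all genes moved from -0.31 to 0.02 and 0.00. All 15 astrocyte markers were higher, with a median of 2.68. All 15 neuron markers and all 12 microglia markers were lower, with medians of -2.86 and -3.20.

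**Figure D1:**
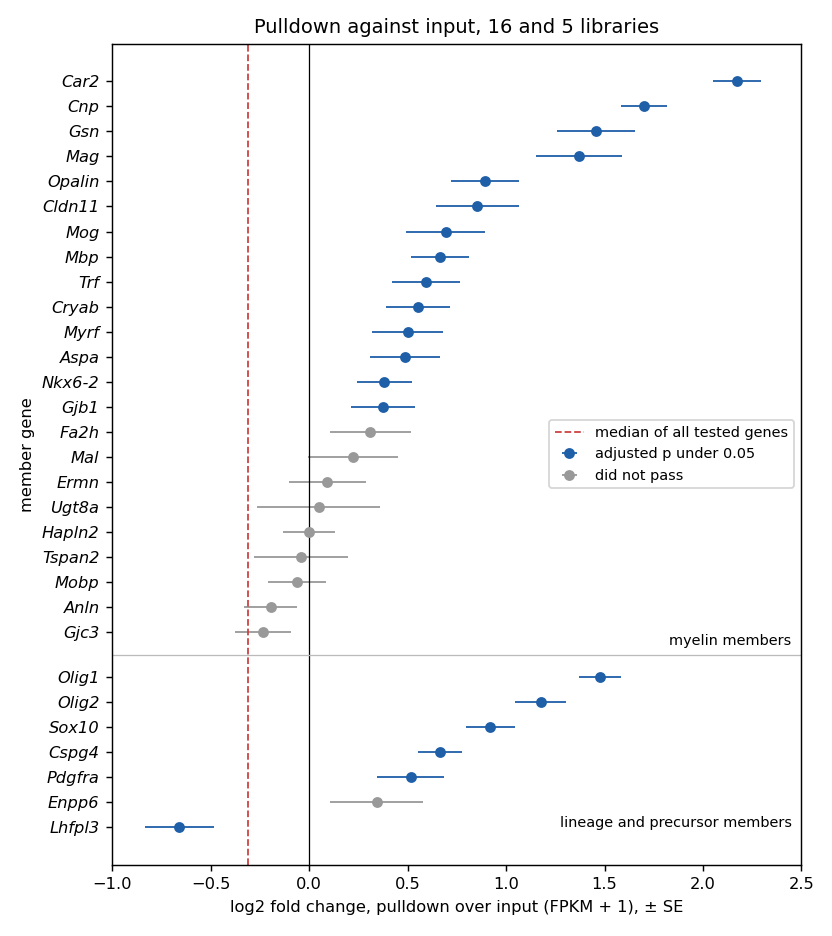
Log2 fold change of each member, pulldown over input, on the log2(FPKM + 1) scale (points, bars ± SE; 16 pulldown and 5 input libraries). Blue points passed the adjusted threshold, grey points did not, and the dashed line marks the median of all tested genes at -0.31; Car2 lies highest at 2.17 and Lhfpl3 lowest at -0.66.

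Car2, carbonic anhydrase 2, was the most enriched member. Its pulldown level was 293 FPKM at the lowest, 371 at the median and 509 at the highest, and its inputs read 63.9 for normal rearing, 88.8 for dark rearing, 93.7 for 10 days of darkness, 74.0 for contralateral and 87.8 for ipsilateral cortex. The ranges did not overlap, and the log2 fold change was 2.17 ± 0.12 (SE; limma adjusted p = 3.63e-12). Cnp, the myelin enzyme that hydrolyses cyclic nucleotides, lay at 342 to 637 FPKM in the pulldowns with a median of 422. Its inputs read 96.6 for normal rearing, 135 for dark rearing, 120.2 for 10 days of darkness, 163 for contralateral and 167.5 for ipsilateral cortex. Every Cnp pulldown was above every input, by 1.70 ± 0.11 on the log2 scale (adjusted p = 5.03e-11). Exons of Cnp overlap those of Dnajc7 on the other strand, and the sources used here do not say whether counting used strand. Gsn, the actin-severing protein gelsolin, ranged from 45.3 to 138 FPKM with a median of 83.5 in the pulldowns. Its inputs read 23.4, 31.7, 18.1, 37.6 and 35.6 FPKM in the same order of groups. These also did not overlap, and the log2 fold change was 1.46 ± 0.20 (adjusted p = 1.27e-06).

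The proteins that build the sheath were enriched to very different degrees. Mag, a glycoprotein of the inner membrane that faces the axon, had a log2 fold change of 1.37 ± 0.22, and all 16 pulldowns (93.3 to 333 FPKM) lay above all 5 inputs (46.6 to 76.8 FPKM). Opalin, an oligodendrocyte membrane glycoprotein, likewise did not overlap (28.1 to 74.3 against 14.9 to 27.2 FPKM, log2 fold change 0.89). Cldn11, the tight junction claudin of myelin, had 0.85, Mog, a surface glycoprotein of the outer lamella, 0.69 ± 0.20, and Mbp, the basic protein that holds the cytoplasmic faces together, 0.66 ± 0.15 (adjusted p = 0.000417). Mbp ran from 467 to 1630 FPKM in the pulldowns and from 429 to 897 in the inputs, so the ranges overlapped while 15 of 16 pulldowns lay above the input of their own group. Under quantile normalization the direction of Mbp turned, to -0.25 (adjusted p = 0.152). Mobp, another basic protein of compact myelin, did not pass the test, at -0.06 ± 0.15 (adjusted p = 0.704), with 20.4 to 66.1 FPKM in the pulldowns and 25.3 to 60.8 in the inputs. Under quantile normalization and median-ratio scaling Mobp lay at 0.09 and 0.30. Mal, a membrane proteolipid, and Tspan2, a tetraspanin, did not pass either, at 0.22 ± 0.23 and -0.04 ± 0.24. Hapln2, a link protein of the matrix at nodes of Ranvier, had 0.3 to 3.7 FPKM in the pulldowns and 0.9 to 2.2 in the inputs, with 7 of 16 pulldowns above their own input (adjusted p = 0.998). It passed as higher after quantile normalization, at 0.39 (adjusted p = 0.00908). Anln, the actin-binding protein anillin, and Ermn, a cytoskeletal protein of oligodendrocytes, did not pass, at -0.20 ± 0.13 and 0.09 ± 0.20.

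The promoters of 4 members are shown as examples that differ in enrichment and in levels by age. Cnp and Mag were enriched without overlap, and Mobp and Hapln2 did not pass. They do not span the full range, since Car2, the highest member, and Lhfpl3, the lowest, are not among them. All 4 windows shown hold a marked core, while the Lhfpl3 window holds none. Each is the 250 bases before the start in RefSeq, on the gene's strand, build GRCm38.p6. Capitals mark ACAAAG or ACAAT on either strand, short cores of the kind that Sox proteins bind.
Cnp, chr11:100574689-100574938, plus strand: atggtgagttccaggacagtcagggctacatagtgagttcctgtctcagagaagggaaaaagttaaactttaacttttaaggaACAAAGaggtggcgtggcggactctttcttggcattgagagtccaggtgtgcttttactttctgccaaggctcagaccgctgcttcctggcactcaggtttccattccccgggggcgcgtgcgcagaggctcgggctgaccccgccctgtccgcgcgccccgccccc
Mag, chr7:30914923-30915172, minus strand: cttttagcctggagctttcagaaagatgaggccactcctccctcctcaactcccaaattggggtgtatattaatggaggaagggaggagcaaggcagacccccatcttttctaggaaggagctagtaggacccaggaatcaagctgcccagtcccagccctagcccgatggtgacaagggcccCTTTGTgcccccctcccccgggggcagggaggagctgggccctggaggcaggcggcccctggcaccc
Hapln2, chr3:88027512-88027761, minus strand: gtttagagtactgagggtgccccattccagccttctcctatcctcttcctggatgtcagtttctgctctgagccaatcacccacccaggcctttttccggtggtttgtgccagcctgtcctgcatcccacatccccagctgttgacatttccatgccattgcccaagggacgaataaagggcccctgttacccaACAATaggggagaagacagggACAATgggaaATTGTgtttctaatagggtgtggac
Mobp, chr9:120149492-120149741, plus strand: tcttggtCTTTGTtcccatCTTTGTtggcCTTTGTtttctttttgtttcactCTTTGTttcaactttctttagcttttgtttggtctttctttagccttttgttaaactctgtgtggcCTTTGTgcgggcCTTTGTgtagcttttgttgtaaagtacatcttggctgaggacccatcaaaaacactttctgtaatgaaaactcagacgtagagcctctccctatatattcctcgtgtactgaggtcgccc
RefSeq has 3 overlapping or nearby windows for Mag; the one shown is the farthest upstream, and one of the others holds no ACAAAG. The Cnp and Mag windows shown each hold 1 ACAAAG and no ACAAT, the Mobp window holds 6 ACAAAG, and the Hapln2 window holds 3 ACAAT and no ACAAAG. Of 30 RefSeq windows belonging to 22 members, 8 hold ACAAAG (26.7%), 9 hold ACAAT and 21 hold the E-box CANNTG, the form that Olig proteins bind, counting both strands. Of all 32851 windows of the same length, 16.5%, 27.7% and 66.2% do. Some member windows belong to the same gene and overlap, so they are not separate promoters. Counted by member, 6, 7 and 14 of 22 hold these motifs in a window. These are counts of letters in a window.

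Among enzymes of myelin lipid and metabolism, Aspa passed the test and Ugt8a and Fa2h did not. Aspa, which splits N-acetylaspartate and so supplies acetate for lipid synthesis, had 3.4 FPKM at the lowest, 5.95 at the median and 16 at the highest in the pulldowns, and 5.6, 4.5, 7.7, 2.8 and 3.2 FPKM in the inputs of normal rearing, dark rearing, 10 days of darkness, contralateral and ipsilateral cortex. The ranges overlapped, and the log2 fold change was 0.49 ± 0.18 (adjusted p = 0.0172). Ugt8a and Fa2h, which make galactosylceramide and hydroxylate its fatty acid, were at 0.05 ± 0.31 and 0.31 ± 0.21. Gjb1, a gap junction connexin, ran from 5.2 to 13.6 FPKM with a median of 8.25 in the pulldowns, and its inputs read 3.9, 7.6, 7.0, 4.9 and 5.9 FPKM. Its log2 fold change was 0.38 ± 0.16 (adjusted p = 0.0432), and the call was lost in 11 of 21 fits that left out 1 library. Gjc3, another connexin, was at -0.23 ± 0.14 and did not pass. Trf, the iron carrier transferrin, and Cryab, a small heat shock protein, were higher by 0.60 and 0.55. Exons overlap another gene on the other strand for Cryab (Hspb2), Ermn (Galnt5) and Tspan2 (Tspan2os), and on the same strand for Mobp (Gm38642) and Trf (Gm20425).

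Among factors that control the lineage, Olig1 was the most enriched. It ran from 116.0 to 204 FPKM with a median of 148 in the pulldowns, and its inputs read 38.1 for normal rearing, 59.6 for dark rearing, 46.0 for 10 days of darkness, 59.0 for contralateral and 70.4 for ipsilateral cortex. Every pulldown lay above every input, and the log2 fold change was 1.48 ± 0.11 (adjusted p = 1.34e-10). Exons of Olig1 overlap those of Gm15966 on the other strand. Olig2, which is also active in some astrocytes, and Sox10, which acts on myelin genes together with Myrf, followed with 1.18 ± 0.13 and 0.92 ± 0.12, again without overlap (14.7 to 27.4 against 7.0 to 13.6 FPKM for Olig2, 17 to 36.9 against 11 to 16.9 for Sox10). Myrf, the factor that drives myelin genes in maturing oligodendrocytes, had 3.6 FPKM at the lowest, 9.2 at the median and 13.2 at the highest in the pulldowns, and 5.5, 4.4, 8.2, 5.9 and 5.1 FPKM in the inputs. Its log2 fold change of 0.50 ± 0.18 passed (adjusted p = 0.0161) although the ranges overlapped. Nkx6-2, a homeodomain factor of myelinating cells, ran from 5.4 to 11.3 FPKM with a median of 7.75 and read 4.9, 5.1, 6.8, 5.5 and 6.8 FPKM in the inputs. It passed at 0.38 ± 0.14 (adjusted p = 0.0185), and its row in the table belongs to a noncoding transcript record that shares exon sequence with Inpp5a on the other strand.

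Of the 4 precursor and early genes, 2 were higher and 1 lower. Cspg4, the NG2 proteoglycan, which pericytes also carry, was higher by 0.66 ± 0.11 without overlap (2.7 to 6.2 against 1.9 to 2.6 FPKM). Of the 8 endothelial and mural markers tested, 7 were lower and the mural marker Pdgfrb was higher, at 1.57 ± 0.19 (adjusted p = 2.54e-07); their part in the value of Cspg4 was not tested. Pdgfra, the receptor for platelet-derived growth factor, was higher by 0.52 ± 0.17 (adjusted p = 0.00935), and 14 of 16 pulldowns lay above their own input. Its exons overlap Gm42802 and Gm42803 on the other strand and Mir7025 on the same strand. Lhfpl3, a tetraspan membrane protein used as a precursor marker, was lower, with 3.0 to 8.0 FPKM in the pulldowns and 7.3 to 9.2 in the inputs. Its log2 fold change was -0.66 ± 0.18 (adjusted p = 0.00205), and 1 of 16 pulldowns lay above its own input. Lhfpl3 shares exon sequence with A930003O13Rik on the other strand. Enpp6, a choline phosphodiesterase of newly formed oligodendrocytes, was at 0.34 ± 0.24 and did not pass (adjusted p = 0.190).

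Ranges of the 16 pulldowns and 5 inputs did not overlap for 9 of the 30 members, all higher: Mag, Cnp, Opalin, Car2, Gsn, Olig1, Olig2, Sox10 and Cspg4. Over all tested genes 14.9% were higher and 28.9% lower without overlap. The mean pulldown lay above the input in each of the 5 groups for 21 members, 15 myelin and 6 lineage, where 27.4% of tested genes did so. It lay below in all 5 groups for Lhfpl3 alone among the members, where 48.0% of tested genes did. The median log2 ratio of the myelin members was 0.576 in normal rearing, 0.414 in dark rearing, 0.627 after 10 days of darkness, 0.475 in contralateral and 0.380 in ipsilateral cortex. The 7 lineage members had 0.745, 0.883, 0.839, 0.364 and 0.622. With 1 input per group, differences between these ratios have no replicate check.

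**Figure D2:**
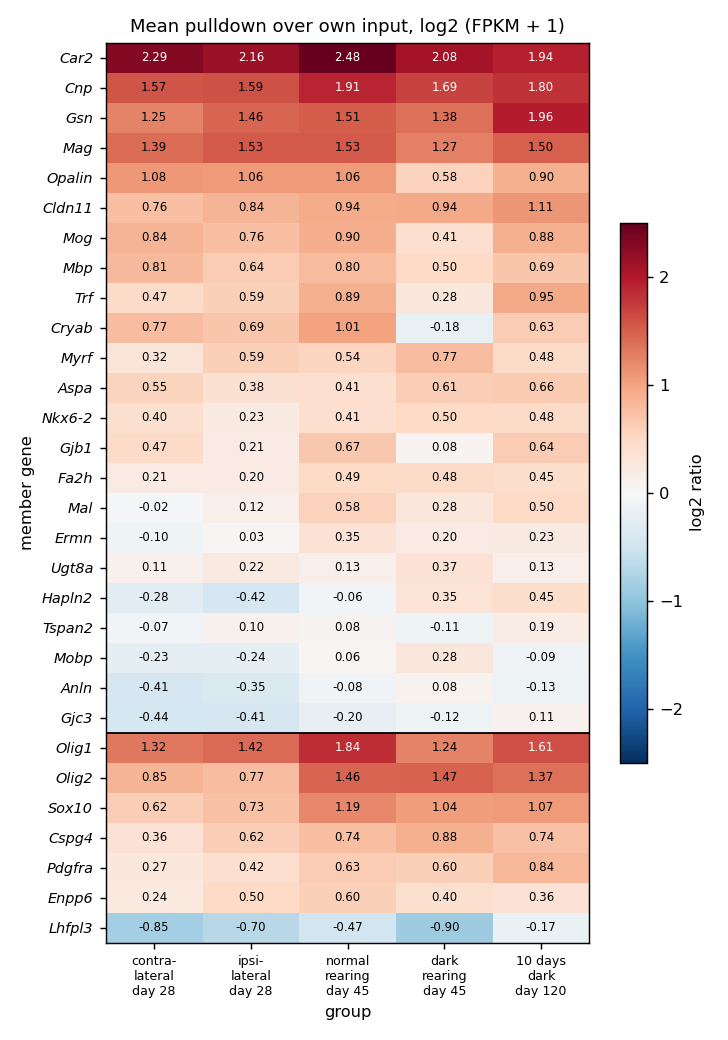
Log2 ratio of the mean pulldown level to the group's own input, FPKM + 1, for each member (rows; myelin members above the line, lineage and precursor members below) and group (columns). Red is higher in the pulldown and blue lower: Car2, Cnp, Gsn, Mag and Olig1 are red in all 5 groups and Lhfpl3 is blue in all 5.

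Other genes of the lineage were counted from lists taken up with earlier results known. Of 34 other myelin and mature oligodendrocyte genes tested, 16 were higher, 5 lower and 13 did not pass, with a median of 0.32. Plekhb1, Efhd1, Serpinb1a and Sirt2, the cytoplasmic deacetylase abundant in myelin, had the largest changes, at 2.26, 2.03, 1.67 and 1.47. Of 21 other precursor and differentiation genes tested, 12 were higher, 3 lower and 6 did not pass, with a median of 0.57. The largest were Ptprz1 at 1.6, a phosphatase that astrocytes also express, Tcf7l2 at 1.17, a Wnt effector of differentiating oligodendrocytes, Matn4 at 1.13 and Sox8 at 1.12. Across 29 members with a transcript length, all measured in the same libraries, the rank correlation of fold change with length was -0.18. Across all 30 members that with the mean input level was 0.515 (Pearson r 0.465), where the input level enters both measures.

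Dark and normal rearing shared an age of 45 days, so that per the labels they differed in light alone. No member passed the test (limma, 0 of 30), and 1 of 11562 genes did (0.00865%), while 640 genes had an unadjusted p under 0.05, none of them a member. The median log2 fold change was 0.08 for the myelin members, -0.17 for the lineage members and -0.08 for all genes. Of the myelin members 15 were above 0 (21 after quantile normalization and 22 after median-ratio scaling). Of the lineage members 6 were below 0. Among all tested genes 34.7% were above 0 as deposited. The median of all genes moved to 0.03 after quantile normalization and 0.01 after median-ratio scaling, so that share does not apply to the scaled counts. Leaving out dark-reared replicate 1 put all 23 myelin members above 0 with a median of 0.25, and leaving out normally reared replicate 1 left 11 above 0 with a median of -0.02. The median was 0.22 without normally reared replicate 3, and 0.040 and 0.025 without dark-reared replicates 5 and 6. No member had groups without overlap, where 2.71% of tested genes were higher and 9.06% lower in that way.

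The 4 members with the smallest p were Cnp, Pdgfra, Lhfpl3 and Cldn11. Cnp read 342, 363 and 392 FPKM in normal rearing and 366, 425, 478 and 485 in dark rearing. Its lowest dark-reared library lay within the normal range and the other 3 above it, and the difference of 0.25 ± 0.18 did not pass (adjusted p = 0.888). Cldn11 read 72.3, 86.9 and 118 FPKM in normal rearing and 89.7, 114, 140.4 and 164 in dark rearing, with 0.45 ± 0.35. Pdgfra, in contrast, read 16.2, 13.4 and 22.8 FPKM in normal and 9.5, 14.5, 15 and 13.6 in dark rearing, with -0.37 ± 0.28. Lhfpl3 read 4.3, 5.5 and 8.0 against 3.0, 4.8, 4.6 and 5.1 FPKM, with -0.35 ± 0.28 (adjusted p = 0.893 for each of these 3). Groups overlapped for all 4. Among related genes, Serpinb1a was at 0.31 (adjusted p = 0.866) and Megf11 at -0.44 (adjusted p = 0.866). Neuron markers had a median of -0.83 in the same comparison, with 312 to 492 FPKM in sum in dark rearing and 503 to 1396 in normal rearing, and their part was not tested.

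In monocular deprivation, the hemisphere driven mainly by the closed eye (contralateral) was compared with the other one. No member and none of 11562 genes passed the test (limma, 0.00%), and 84 genes had an unadjusted p under 0.05, with Olig1 the one member among them. Libraries with the same number deviated alike across genes, with correlations of 0.80, 0.79 and 0.90, so the numbers were taken as pairs. Whether a pair comes from the same mice cannot be told from these correlations. The main fit, which gave the values and p printed here, left the pairs out, so its SE includes the spread between pairs. With the pair as a block, still 0 members and 0 genes passed, and 390 genes had an unadjusted p under 0.05. Olig1 read 162.5, 158.5 and 125.3 FPKM contralaterally and 201, 204 and 163 ipsilaterally for pairs 1, 2 and 3, lower on the contralateral side in each pair, with -0.35 ± 0.16 (adjusted p = 1). Sox10, Olig2 and Cspg4 followed, at -0.27 ± 0.20, -0.24 ± 0.19 and -0.19 ± 0.19. Sox10 read 29.0, 17.0 and 26.3 against 32.2, 26.4 and 27.4 FPKM, and Olig2 20.9, 17.6 and 21.6 against 23.4, 20.9 and 27.4. Cspg4 read 4.2, 2.7 and 4.0 against 4.8, 3.7 and 4.2 FPKM.

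These 4 lineage genes, with the myelin members Car2 and Gsn, were lower contralaterally in all 3 pairs, 6 of 30 members where 20.8% of tested genes were. No member was higher in all 3 pairs, where 4.80% of genes were. All 7 lineage members had a contralateral mean below the ipsilateral on the log2 scale, with a median of -0.19, against -0.06 for all genes. Most tested genes were below 0 as well, with 30.2% above 0 as deposited. With single libraries left out, the lineage median ran from -0.35 without contralateral replicate 3 to -0.05 without contralateral replicate 2. Myelin members had a median of -0.07, with 21 of 23 below 0 as deposited, while 10 lay above 0 after quantile normalization and 8 after median-ratio scaling. The median of all genes moved to -0.007 after each of these scalings, so the share of 30.2% does not apply to the scaled counts. The myelin median was -0.31 without contralateral replicate 1 and -0.30 without ipsilateral replicate 2, and it was above 0 when contralateral replicate 2 (0.21) or ipsilateral replicate 1 (0.080) was left out.

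In some libraries nearly all myelin members lay on the same side of the mean of their group. In pair 1, 22 of 23 lay above the group mean contralaterally and 21 ipsilaterally, and in pair 2, 1 and 0 did. The share of all tested genes above the mean in these 4 libraries was 32.0% and 28.4% in pair 1 and 42.3% and 50.3% in pair 2. Mog read 149, 49.7 and 58.8 FPKM contralaterally and 129, 55.8 and 70.8 ipsilaterally for pairs 1 to 3, and Mag 333, 93.3 and 181 against 325, 116.3 and 198. Pair 1 was high in both hemispheres and pair 2 low in both. In dark-reared replicate 1, 1 of 23 myelin members was above the group mean, against 31.4% of all genes, and in normally reared replicate 3 21 were, against 62.9%. Dark-reared replicates 5 and 6 had 22 and 23 myelin members above, against 53.4% and 71.3% of all genes. Normally reared replicates 1 and 2 had 2 and 6 above, against 29.0% and 52.2%. Day 120 replicates 1 and 3 had 7 and 19 above, against 42.3% and 50.6%. The remaining libraries divided more evenly, with 11 above in dark-reared replicate 4 and 15 in ipsilateral replicate 3. Day 120 replicate 4 and contralateral replicate 3 had 14 each. Car2 had another order, with 293 and 307 FPKM in pair 1 and 477 and 509 in pair 3.

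**Figure D3:**
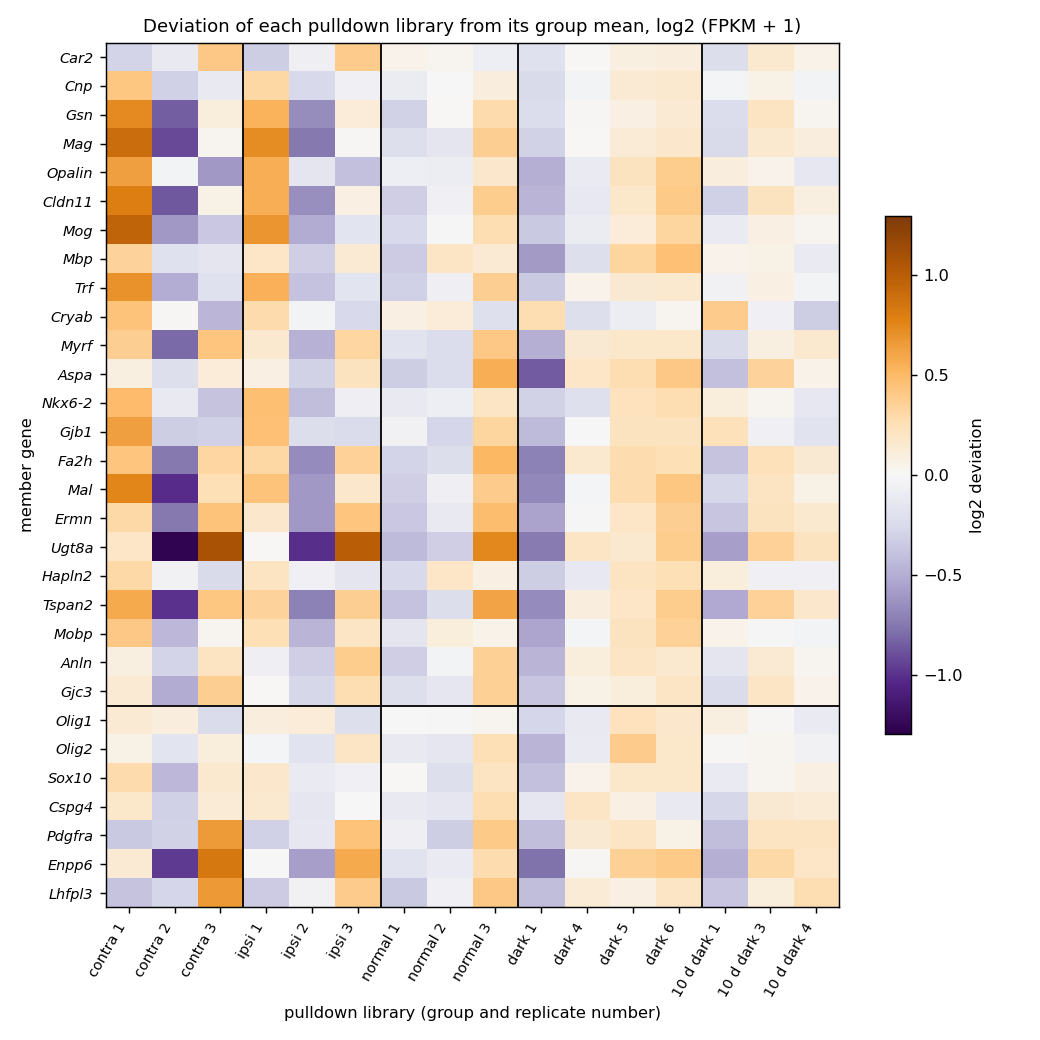
Deviation of each pulldown library from the mean of its group, log2(FPKM + 1), for each member (rows; myelin members above the line) and the 16 pulldown libraries (columns, by group and replicate number). Orange is above and purple below the group mean: pair 1 of the monocular libraries is mostly orange in both hemispheres, and pair 2 and dark-reared replicate 1 are mostly purple.

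The group at day 120 with 10 days of darkness was set against normal rearing at day 45, where age and darkness cannot be told apart. No member passed (limma, 0 of 30), and 10 of 11562 genes did (0.0865%), 9 of them higher (0.0778%), while 442 had an unadjusted p under 0.05. Of the 23 myelin members, 19 were above 0, where 52.6% of tested genes were. Their median log2 fold change was 0.26, against 0.01 for all genes and 0.03 for the lineage members. The myelin median was 0.48 without normally reared replicate 3 and 0.42 without day 120 replicate 1, and at the lowest 0.23. Hapln2 read 0.9, 1.6 and 1.4 FPKM in normal rearing and 3.7, 3.2 and 3.2 after 10 days of darkness. The groups did not overlap, and the difference was 0.94 ± 0.19 (adjusted p = 0.128). It passed with a pseudocount of 5 (adjusted p = 0.0228), with no filter on low values (0.0462) and with the monocular pairs as a term in the shared fit (0.0191).

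Anln read 1.3, 1.8 and 2.7 FPKM against 3.4, 4.4 and 4.0, with 0.77 ± 0.23 (adjusted p = 0.588). Trf read 83.6, 99.3 and 134 FPKM against 189, 206 and 190.2, with 0.91 ± 0.29 (adjusted p = 0.683), and it passed with the monocular pairs as a term (0.0219). Gjb1 read 6.4, 5.3 and 8.6 FPKM against 13.6, 10.9 and 9.9, with 0.69 ± 0.28 (adjusted p = 1). In all 4 genes every day 120 library lay above every normally reared one. So did those of Mbp, Cnp, Opalin, Nkx6-2 and Sox10, 9 of 30 members in all, where 6.31% of tested genes were higher without overlap. No member was lower in that way, where 4.60% of genes were. Of the related myelin genes, 29 of 34 were above 0 with a median of 0.33 and none passed. Evi2a (0.93) and Apod (1.15), a lipocalin, had the smallest p, with adjusted p of 0.265 and 0.371. The related precursor genes had a median of -0.09, with Bmp4, a growth factor ligand, at -0.53 and Gpr17, a receptor of committed precursors, at -0.55 (adjusted p = 0.905 and 1). Beside these, 6 of 11 microglia markers were higher in the same comparison, with a median of 1.52. Astrocyte markers had a median of -0.26, 14 of 15 below 0, neuron markers 0.23, 14 of 14 above 0, and the 2 blood markers tested 1.35. The part of these cells in the members' values was not tested.

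The ipsilateral cortex at day 28 was set against normal rearing at day 45, which changes age and deprivation together. No member and no gene passed (limma, 0 of 11562, 0.00%), while 1108 genes had an unadjusted p under 0.05, 7 of them members. The median was 0.06 for both member lists and -0.16 for all genes, which moved to -0.01 after quantile normalization. The medians of the myelin and lineage members moved to 0.19 and 0.16 after quantile normalization and were both 0.24 after median-ratio scaling. With single libraries left out, the myelin median ran from -0.10 without ipsilateral replicate 3 to 0.39 without ipsilateral replicate 2. It was also below 0 without normally reared replicate 2 or ipsilateral replicate 1. Astrocyte markers had a median of -0.47 in this comparison, 11 of 15 below 0, and neuron markers -0.37, 10 of 14 below 0. Among all tested genes 28.6% were above 0. Astrocyte markers summed to 14496, 13324 and 19378 FPKM in ipsilateral cortex and 16421 to 17991 in normal rearing, and the part of these cells was not tested. Mbp read 582, 845 and 809.9 FPKM in normal rearing and 1575, 1110.3 and 1517 in ipsilateral cortex, without overlap, with 0.91 ± 0.26 (adjusted p = 0.504). Mobp read 28.7, 34.6 and 33.4 FPKM against 60.2, 36.1 and 57.8, with 0.63 ± 0.25, and Olig1 138.2, 137.5 and 141 against 201, 204 and 163, with 0.44 ± 0.16. Hapln2 went the other way, with 0.9, 1.6 and 1.4 FPKM against 0.8, 0.5 and 0.4, and -0.55 ± 0.19. Each of the 4 had an adjusted p of 0.504. Every ipsilateral library lay above every normally reared one for 5 of 30 members (Mbp, Cnp, Mobp, Opalin and Olig1), where 2.58% of tested genes did, and below for 3 (Gjc3, Hapln2 and Aspa), where 6.73% did. With the contralateral libraries added to the ipsilateral ones, Mbp and Mobp lay above (0.908% of genes) and Aspa below (3.17%), while Olig1 and Hapln2 overlapped. Without monocular pair 3, 2590 of 11535 genes passed, 346 higher (3.00%) and 2244 lower (19.5%). Of the members, 3 of 30 passed, a smaller share than of all genes: Olig1 at 0.54 and Opalin at 0.80 were higher and Anln at -0.72 was lower. In the fit of all libraries, where no gene passed, the related genes Serpinb1a and Tcf7l2 were at -0.66 and -0.64. Sirt2 and Lims2 were at 0.49 and 0.52 in that fit.

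Levels of the myelin members followed different orders across the 3 ages. Hapln2 averaged 0.57 ± 0.31 FPKM (SD, n = 3) in contralateral and 0.57 ± 0.21 (n = 3) in ipsilateral cortex at day 28. It averaged 1.3 ± 0.36 (n = 3) in normal and 1.55 ± 0.48 (n = 4) in dark rearing at day 45, and 3.37 ± 0.29 (n = 3) at day 120. Normal and dark rearing overlapped, as did the 2 hemispheres. Its inputs read 0.9 and 1.1 FPKM at day 28, 1.4 and 1.0 at day 45 and 2.2 at day 120. Trf averaged 73.2 ± 34.0, 76.6 ± 27.9, 105.7 ± 25.9, 115 ± 17.8 and 195 ± 9.54 FPKM in that order of groups, and Aspa 4.57 ± 0.67, 4.47 ± 0.97, 7.8 ± 3.21, 7.43 ± 2.75 and 12.7 ± 3.41. Mobp had its highest means at day 28, with 50.9 ± 14.95, 51.4 ± 13.3, 32.2 ± 3.12, 30.95 ± 7.95 and 29.5 ± 0.97 FPKM. Its day 45 and day 120 libraries overlapped. Its day 28 and day 45 libraries overlapped too, with 36.2 and 36.1 FPKM in pair 2 and 38.6 in dark-reared replicate 6. Mbp was highest at day 28 (1305 ± 282 and 1401 ± 253), lowest at day 45 (746 ± 143 and 735 ± 237) and between them at day 120 (1053 ± 69.2).

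Against the 6 monocular libraries as one group, day 120 lay higher without overlap in Ermn, Gjc3, Hapln2, Anln, Aspa, Trf and Sox10, 7 of 30 members, where 11.1% of tested genes did. Mbp and Mobp lay lower without overlap, where 1.44% of genes did. The 6 libraries are 3 pairs, so they carry less information than 6 separate samples. The inputs, with 1 library per group, also divided by gene. The day 120 input was above both day 28 inputs for 11 of 23 myelin members, namely Ermn, Opalin, Myrf, Gjb1, Gjc3, Hapln2, Anln, Aspa, Trf, Car2 and Cryab, and below both for 11 others, with Mbp, Mobp, Mog, Mag and Cnp among them. It was below both for 5 of 7 lineage members and above both for none. Over all tested genes 31.4% were above both and 45.3% below both. Gjc3, Aspa and Trf were the 3 members with inputs in the full order of day 28, day 45 and day 120, where 2.14% of genes were. No member had pulldowns of monocular, normally reared and day 120 libraries in that order without overlap, where 0.441% of genes did, or in the reverse order, where 0.0692% did.

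**Figure D4:**
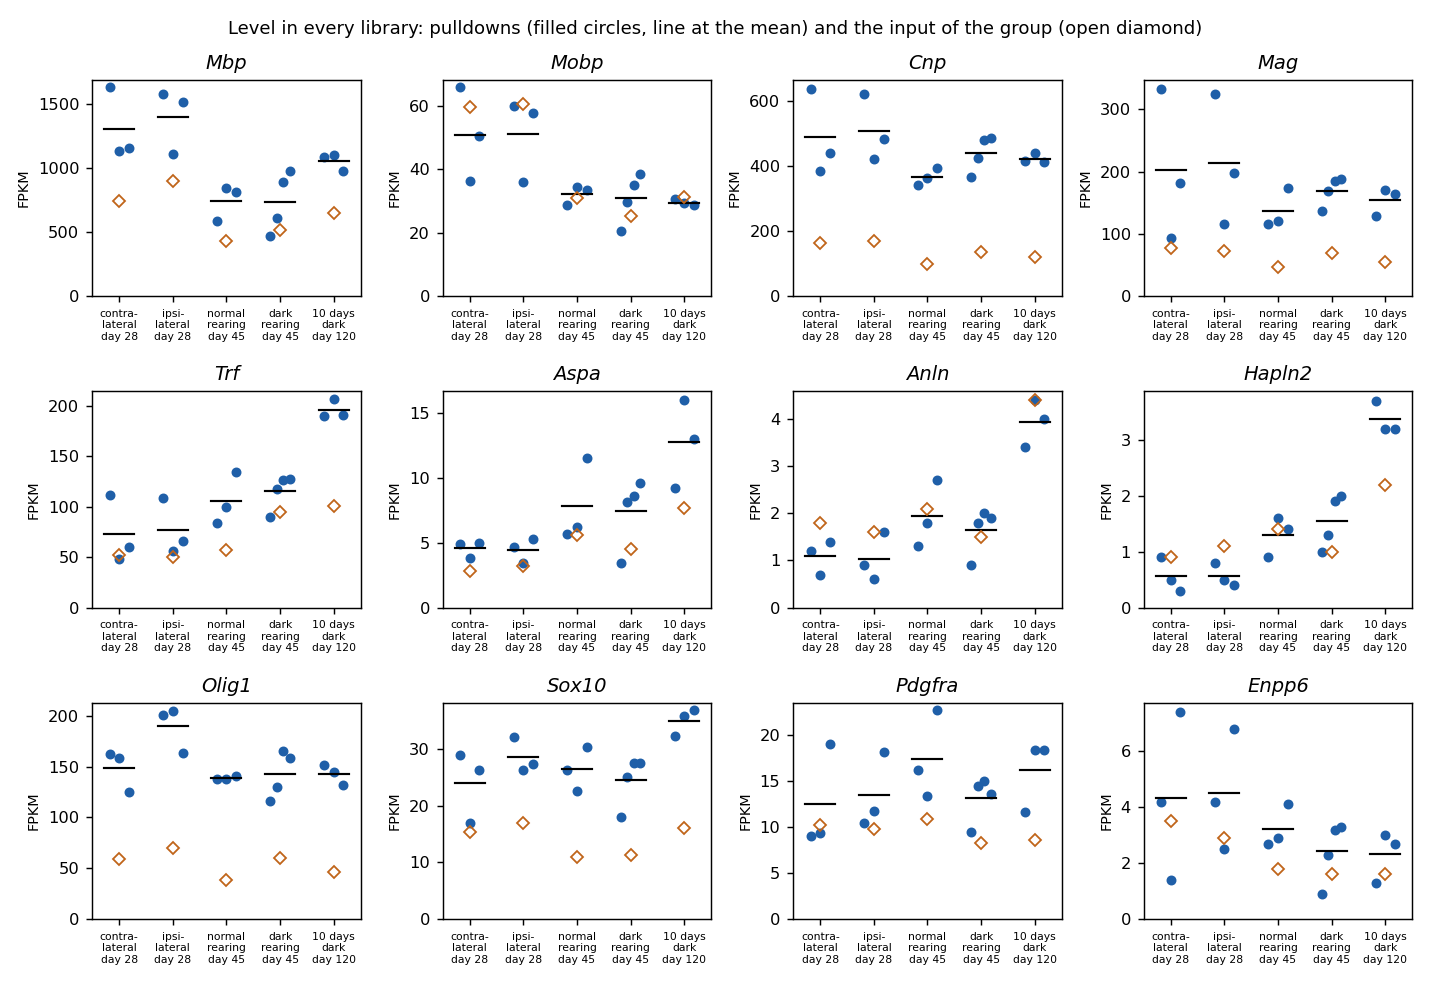
Level in FPKM of 12 members in each library, by group in order of age; filled circles are pulldown libraries, lines their mean and open diamonds the 1 input of the group. Pulldown means of Mbp and Mobp are highest at day 28 and those of Trf, Aspa, Anln and Hapln2 at day 120. Every Cnp and Olig1 pulldown lies above its input.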

How the data were processed

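Per the labels' protocols, brains were fixed by perfusion with 1% PFA, ribosomes were collected with anti-HA and poly(A) RNA was sequenced. The submitters' processing notes name the build mm10, the aligner STAR 2.5.1b and HOMER 4.10, and also FastQC 0.11.2, CASAVA 1.8.2, DESeq2 and R 3.4.3. The deposited table holds FPKM values per gene, computed by the authors, and whether counting used strand is not given in the sources used here. Of 22 labelled samples, 21 have a column; dark-reared replicate 2 was not analysed here, and 1 further column of per-sample values was not used. Of 24537 genes, 26 had names restored from dates.

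Values were taken as log2(FPKM + 1) for genes with a mean above 1 FPKM and fitted with limma 3.58.1 in R 4.3.3 (trend, robust). Each two-sided p was adjusted over every gene tested by the Benjamini-Hochberg method, with a threshold of 0.05. The 16 pulldown libraries shared one estimate of spread. The fits were tested on simulated data. FPKM are not counts, so no count model was used, and the number of libraries limits the precision. Depth estimates cover counting error only. Each depth was chosen for the best agreement of short-gene values with whole reads, so that agreement is no separate check. At the chosen depths 74.8% to 87.0% of values were whole reads within rounding, against 18.1% to 42.5% by chance. Contralateral replicate 2, given no depth, reached 73.6% against 37.5% by chance.

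Members and gene lists were chosen with earlier results of these data known. Full values are given for members past the threshold (the 4 largest and 4 smallest changes where more than 8 passed), or else for the 4 with the smallest p. Other lists give up to 4 genes past the threshold, or the 2 with the smallest p. Alternatives were other pseudocounts, filters, scalings, designs and left-out libraries. The main fits did not use the pairing of hemispheres. Same-numbered hemispheres were taken as pairs in alternatives and in counts by pair. Their deviations from the group means correlated at 0.80, 0.79 and 0.90 across genes. Promoter sequences are from RefSeq, GRCm38.p6.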

Additional observations from a re-analysis of the deposited data

Results flagged for a closer look

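In dark rearing, 1 of 4 pulldown libraries stood apart from the rest for a pair of members. The lowest library of Fa2h read 9.1 FPKM, against 17.4 to 19.0 in the other 3, and its gap took up 0.838 of the group's range, past the critical value of 0.829. The lowest of Myrf read 5.4 FPKM, against 9.0 to 9.2, with a gap of 0.947 of the range. Both are replicate 1, and chance alone marks about 1 in 20 groups while 30 members were examined.

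Hapln2 stood on opposite sides of its own input in 2 groups. The log2 ratio of mean pulldown to input was 0.448 after 10 days of darkness, with all 3 libraries above the input, and -0.423 in ipsilateral cortex, with all 3 below. The difference between these groups was not tested.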

How the results depend on the processing

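In pulldown against input, 17 to 24 members passed over the alternatives, and 17 to 21 with 1 library left out. Genes called ran from 6070 of 7922 tested with a filter at 5 FPKM to 12715 of 18436 with no filter. The main fit called 9300 of 12070. Of the single-member values, 831 kept direction and side of the threshold, 20 lost the call, 10 gained it and 35 turned direction. Under quantile normalization the turned values were Mbp -0.25, Mobp 0.087, Gjc3 0.16, Hapln2 0.39, Anln 0.22 and Tspan2 0.18; under median-ratio scaling, Mobp 0.30, Gjc3 0.086, Hapln2 0.18, Anln 0.027 and Tspan2 0.31. Hapln2 lay at 0.021 with a pseudocount of 5, 0.0045 with no term for the group, 0.0073 with group means and 0.24 without the 6 monocular libraries. Tspan2 lay at 0.038 with group means, and Mobp at 0.073 without the monocular libraries. With 1 library left out, Hapln2 ran from -0.11 to 0.11, Tspan2 from -0.10 to 0.051 and Ugt8a from -0.043 to 0.17. The cause was not tested.

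For 10 days of darkness against normal rearing, 1 member passed with a pseudocount of 5, 1 with no filter and 2 with the monocular pairs as a term. Of all genes, 20 of 11562, 73 of 17578 and 77 of 11562 passed in these settings, against 10 of 11562 in the main fit. Over all alternatives, genes called ran from 0 to 77. For ipsilateral against normal rearing, 0 to 3 members and 0 to 2590 genes passed as libraries or pairs were left out. Over all 30 members, values that turned direction under an alternative numbered 93 in contralateral against ipsilateral, 48 in dark rearing, 44 in ipsilateral and 25 in 10 days of darkness against normal rearing, where no member passed as deposited. The replicate block changed no member's call: 0 members passed with it in contralateral against ipsilateral, in 10 days of darkness and in ipsilateral against normal rearing. In the latter 2 the numbers did not pair the samples (r = 0.22 and -0.08; 0.57, 0.02 and 0.17). For dark against normal rearing no paired analysis was possible, because these groups share only 1 number with a column. The monocular pairs as a term, the fits without monocular libraries and those without a pair were chosen after seeing the data.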
